A study of Mus musculus with 27 samples.

Results

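The 2 corticosteroid receptor genes and 5 of the genes they switch on were followed across the cell types in nuclei from mouse hippocampal samples. The receptor genes were Nr3c1, which encodes the glucocorticoid receptor, and Nr3c2, which encodes the mineralocorticoid receptor. The target genes were Fkbp5, Tsc22d3, Sgk1, Zbtb16 and Errfi1. The 7 genes were chosen by symbol, and each symbol matched 1 of the 31053 genes in the count tables. Both receptors are proteins that wait in the cytoplasm bound to Hsp90 chaperones, bind corticosterone from the adrenal gland, and move to the nucleus, where they bind DNA and change transcription. The mineralocorticoid receptor has the higher affinity and is largely occupied at resting hormone levels, whereas the glucocorticoid receptor fills at the daily peak and in stress. The hippocampus is known for holding both receptors and takes part in shutting off the hormone response.

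Nuclei came from frozen hippocampi of 27 mice, with 1 library per mouse, and the labels name no drug or hormone treatment. Without the tau transgene there were 5 Cgas+/+ mice, of which 2 were female, and 2 mice each of Cgas+/- and Cgas-/-, which were all male. The groups with it were P301S Cgas+/+, P301S Cgas+/- and P301S Cgas-/-, each with 3 males and 3 females. P301S mice carry a human tau transgene with a dementia-linked mutation under the mouse Prnp promoter, and Cgas encodes a sensor of cytosolic DNA. The Cgas-/- line lacks the gene in the whole body, also outside the brain. Age at collection was 8 to 9 months or 9 to 10 months, since 2 accounts of it differ. By the authors' account mice had behavioural tests at 7 to 8 months, and RNA sequencing later used those mice. Corticosterone and the hour of tissue collection were not analysed here.

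Levels are given as CPM, the UMIs (captured RNA molecules) of a gene per 1000000 UMIs of a class of nuclei in 1 mouse, so that n is a number of mice. A name such as astrocyte-like stands for clusters named from marker genes, with the 7 genes left out of the clustering. Of 204852 kept nuclei, 10303 stayed unnamed, and 4460 of those came from P301S Cgas+/+ replicate 3, the library with the lowest median UMI count per kept nucleus. When excitatory neuron-like nuclei were clustered again, 5709 of them, in 4 of 41 clusters, were given no subclass such as CA1-like. They stayed in the excitatory neuron-like class. The largest of these clusters, of 2251 nuclei, passed 5 CA1 markers but scored close to cortical, so CA1-like levels leave it out. The files held 4.61e+07 to 7.95e+07 UMIs per library, and the median UMI count per kept nucleus was 3523 ± 827 (SD, n = 6) in P301S Cgas+/+ against 5515 ± 1690 (n = 5) in Cgas+/+. Cgas itself did not check the labels, and which part of the gene is deleted was not given in the sources used here. Its level was 1.22 to 1.82 CPM in the libraries labelled Cgas+/+ and 1.60 to 2.29 CPM in those labelled Cgas-/-, and 1.36 to 3.60 CPM in P301S Cgas+/+ against 1.24 to 2.77 CPM in P301S Cgas-/-. Every direction drawn from these groups therefore rests on the libraries as labelled. Any 2 libraries shared 8 to 48 cell barcodes. Clusters led by markers of dentate granule, CA1 and CA3 neurons were found, but since classes were named from such markers this is no independent check of the tissue label. The samples also held 3697 striatal projection neuron-like nuclei. An excitatory neuron-like cluster of 920 nuclei was led by Fat2 and Gabra6 and passed only 3 excitatory markers. The part of regional makeup in the glial and inhibitory classes was not tested. Cortical-like nuclei made up 4.86% to 95.0% of the excitatory nuclei of a mouse. Many cortical-like clusters were led by Tshz2, some with Fn1 or Vwc2l, and whether they hold neurons of the subiculum was not tested. The share is thus no measure of nuclei from outside the hippocampal formation. The class called hippocampal-like excitatory below holds only nuclei named for the dentate gyrus or a CA field.

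Positions of the genes, other than Nr3c1, were read from GRCm38 with GENCODE vM21. Nr3c2 is at chr8:76899442-77245012. Fkbp5 is at chr17:28399094-28517527, Tsc22d3 at chrX:140539528-140600659, Sgk1 at chr10:21882184-21999903, Zbtb16 at chr9:48654297-48836222 and Errfi1 at chr4:150853919-150868892. Activated receptors bind as pairs to a palindromic element, AGAACA followed by any 3 bases and TGTTCT, in which each arm is a half-site. This element, which reads the same on both strands, was searched in the windows of 300 bases that RefSeq (GRCm38.p6) gives around gene starts, and it occurred in 3 of 32851 windows (0.00913%). Windows of 5 of the genes were matched, without Nr3c1 and Zbtb16, and 1 of the 6 Sgk1 windows held it. The first 150 bases of that window, chr10:21993640-21993789 on the plus strand, are shown because they carry the one full element among these genes. They lie inside the annotated span of Sgk1, before the gene start of that window, and capitals mark the element and a lone half-site.
Sgk1: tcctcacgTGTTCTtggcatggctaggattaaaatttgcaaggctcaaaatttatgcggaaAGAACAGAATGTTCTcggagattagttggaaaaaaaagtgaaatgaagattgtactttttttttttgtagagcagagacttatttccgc
The element occupies bases 62 to 76 of this stretch and begins 189 bases before the gene start. A half-site alone, TGTTCT on either strand, was found in 3 of the 6 Sgk1 windows, in 1 of 3 Tsc22d3 windows, and in neither of the 2 Errfi1 windows, the Fkbp5 window or the Nr3c2 window. It occurred in 19.0% of all windows and overlaps the full element by construction. A match of letters is a description and not a binding site, and no match concerns only these windows.

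The 2 receptor genes had different orders of level across the cell types. Nr3c1 was high in glia and vessels and low in CA3-like and CA2-like neurons. It was 290 ± 81.8 CPM in endothelial-like nuclei (SD, n = 23), 272 ± 26.8 in microglia-like (n = 27), 265 ± 79.5 in fibroblast-like (n = 17), 232 ± 19.7 in oligodendrocyte-like (n = 27) and 214 ± 23.6 CPM in astrocyte-like nuclei (n = 27). The first of these did not separate beyond their spread, since endothelial-like exceeded microglia-like nuclei in 15 of 23 mice and microglia-like exceeded fibroblast-like nuclei in 10 of 17. Oligodendrocyte-like exceeded astrocyte-like nuclei in 21 of 27 mice. Below them came oligodendrocyte progenitor-like nuclei with 156 ± 19.8 CPM, cortical-like with 132 ± 16.1 and CA1-like with 126 ± 18.5 CPM (n = 27 each), and the last pair kept that order in 18 of 27 mice. Dentate granule-like nuclei had 76.0 ± 12.98 CPM, inhibitory neuron-like nuclei 55.2 ± 10.1 (n = 27 each), CA3-like nuclei 35.7 ± 8.15 (n = 22) and CA2-like nuclei 21.7 ± 11.98 CPM (n = 14). Dentate granule-like exceeded inhibitory neuron-like nuclei in 25 of 27 mice, and CA3-like exceeded CA2-like nuclei in 11 of 14. Within the pyramidal layer, CA1-like nuclei were thus the high end for Nr3c1 and CA2-like nuclei the low end.

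Nr3c2 was highest where Nr3c1 was lowest. It was 2632 ± 559 CPM in CA2-like nuclei (n = 14), above the dentate granule-like level of 1504 ± 218 CPM (n = 27) in 14 of 14 mice. CA1-like nuclei had 1412 ± 261 CPM (n = 27) and CA3-like nuclei 1351 ± 222 CPM (n = 22), and neither was above the other in most mice, with CA1-like higher in 11 of 22. Fibroblast-like nuclei reached 1483 ± 567 CPM (n = 17). The other classes described were lower, with 745 ± 132 CPM in endothelial-like (n = 23), 661 ± 55.9 in astrocyte-like, 460 ± 44.8 in inhibitory neuron-like, 395 ± 154 in cortical-like, 372 ± 67.5 in microglia-like, 285 ± 42.2 in oligodendrocyte-like and 249 ± 45.3 CPM in oligodendrocyte progenitor-like nuclei (n = 27 each). The levels of 2 genes cannot be compared directly, but the ratio of their UMIs can be compared between cell types. The ratio of Nr3c2 to Nr3c1 averaged 157 in CA2-like nuclei (64.3 to 366 between mice), 39.4 in CA3-like (19.9 to 53.5), 20.2 in dentate granule-like (14.6 to 30.7) and 11.5 in CA1-like nuclei (7.06 to 18.9). It averaged 3.11 in astrocyte-like (2.55 to 3.76), 1.37 in microglia-like (0.904 to 1.97) and 1.24 in oligodendrocyte-like nuclei (0.810 to 1.57). CA2-like and CA3-like nuclei overlapped neither with each other nor with the glia on this ratio, whereas microglia-like and oligodendrocyte-like nuclei overlapped. In CA2-like nuclei Nr3c1 had only 94 UMIs, from 324 nuclei of 14 mice. Each ratio there is a division by few UMIs, so its size and its distance from CA3-like nuclei are imprecise.

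**Figure D1:**
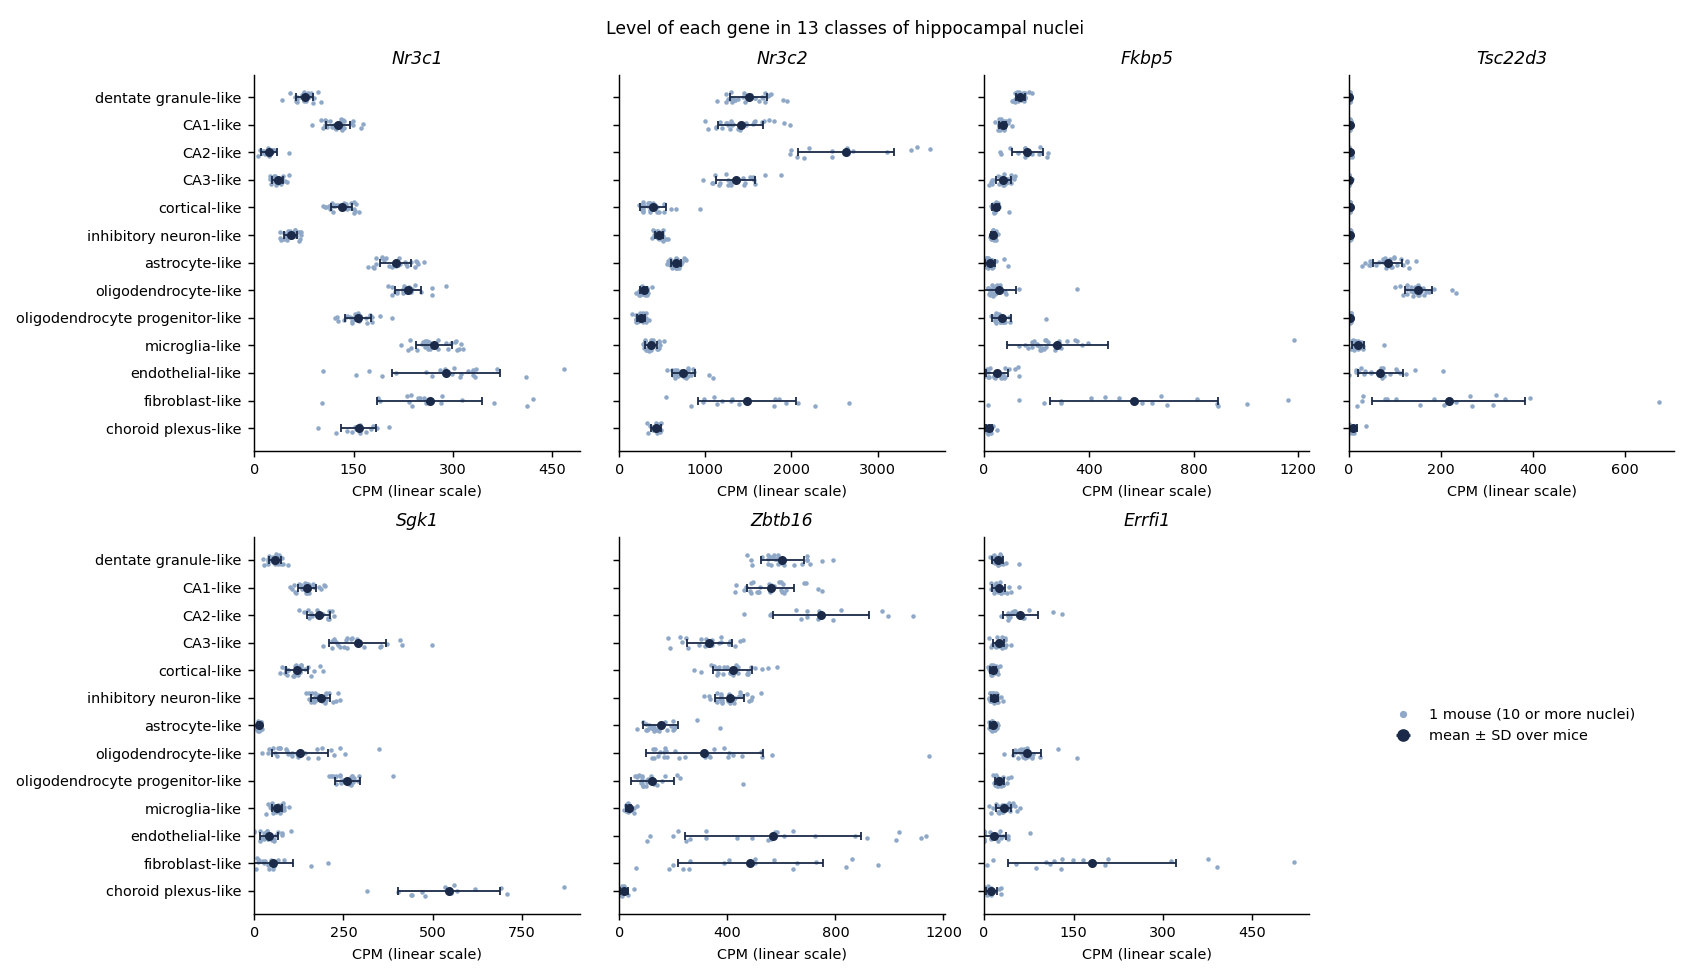
Level of each gene in 13 classes of nuclei, in CPM on linear axes that differ between panels. Small points are mice with 10 or more nuclei of the class, and large points with bars are the mean ± SD over mice. Nr3c2 is highest in CA2-like nuclei and Nr3c1 lowest there, Tsc22d3 is near 0 in neurons, Sgk1 is highest in choroid plexus-like nuclei, and single mice stand far to the right for Fkbp5 in microglia-like and for Fkbp5 and Zbtb16 in oligodendrocyte-like nuclei.

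The target genes had different orders again. Fkbp5 encodes a co-chaperone of Hsp90 that lowers the affinity of the glucocorticoid receptor for its ligand, and so closes a feedback loop. It was 572 ± 321 CPM in fibroblast-like (n = 17), 280 ± 193 in microglia-like (n = 27), 164 ± 59.2 in CA2-like (n = 14) and 139 ± 18.2 CPM in dentate granule-like nuclei (n = 27). CA3-like nuclei had 72.9 ± 29.1 CPM (n = 22) and CA1-like nuclei 70.8 ± 14.4 (n = 27), and CA3-like was higher in 14 of 22 mice. Oligodendrocyte progenitor-like nuclei had 67.0 ± 37.6 CPM, oligodendrocyte-like 58.0 ± 64.9, inhibitory neuron-like 35.6 ± 7.41 and astrocyte-like 22.1 ± 20.2 CPM (n = 27 each). The SD was as large as the mean in oligodendrocyte-like and nearly so in astrocyte-like nuclei, but a small part of it in dentate granule-like nuclei.

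Zbtb16, which encodes a zinc finger repressor of transcription, had its highest levels in CA2-like (746 ± 177 CPM, n = 14) and dentate granule-like nuclei (603 ± 79.8 CPM, n = 27), in that order in 11 of 14 mice. Endothelial-like nuclei had 568 ± 325 CPM (n = 23), CA1-like 561 ± 86.5 (n = 27), inhibitory neuron-like 409 ± 53.7 (n = 27), CA3-like 333 ± 83.9 (n = 22), oligodendrocyte-like 315 ± 217, astrocyte-like 154 ± 64.2, oligodendrocyte progenitor-like 123 ± 79.2 and microglia-like nuclei 34.9 ± 10.5 CPM (n = 27 each). Microglia-like nuclei were thus high for Fkbp5 and low for Zbtb16. Sgk1 encodes a kinase that acts on ion channels and transporters. It was 547 ± 143 CPM in choroid plexus-like nuclei (n = 14), above the CA3-like level of 290 ± 78.7 CPM (n = 22) in 13 of 13 mice that had both classes. Oligodendrocyte progenitor-like nuclei had 261 ± 34.5 CPM, inhibitory neuron-like 186 ± 25.8, CA1-like 147 ± 25.5, oligodendrocyte-like 127 ± 78.7, microglia-like 63.6 ± 14.5, dentate granule-like 57.7 ± 16.5 and astrocyte-like nuclei 13.3 ± 4.04 CPM (n = 27 each). Dentate granule-like nuclei, high for Nr3c2, Fkbp5 and Zbtb16, were near the low end for Sgk1.

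Tsc22d3 encodes a leucine zipper protein, also known as GILZ, that dampens inflammatory signalling. It was highest in some glial and vascular classes, with 217 ± 167 CPM in fibroblast-like (n = 17), 150 ± 29.2 in oligodendrocyte-like (n = 27), 83.9 ± 31.2 in astrocyte-like (n = 27), 67.8 ± 48.7 in endothelial-like (n = 23) and 20.3 ± 13.3 CPM in microglia-like nuclei (n = 27). Oligodendrocyte-like exceeded astrocyte-like nuclei in 27 of 27 mice. Oligodendrocyte progenitor-like nuclei, with 2.52 ± 1.66 CPM (n = 27), and mural-like nuclei, with 9.15 ± 14.2 CPM and a median of 0 (n = 24), were low. Excitatory neuron-like nuclei had 1.33 ± 0.390 CPM and inhibitory neuron-like nuclei 2.31 ± 0.958 CPM (n = 27 each), which leaves little room to read differences there. Errfi1 encodes an inhibitor of the epidermal growth factor receptor. It was 181 ± 142 CPM in fibroblast-like (n = 17), 71.3 ± 23.4 in oligodendrocyte-like (n = 27), 60.3 ± 29.3 in CA2-like (n = 14) and 32.9 ± 13.1 CPM in microglia-like nuclei (n = 27), with 14.4 to 25.7 CPM in the other tested classes. Since the classes were formed from the same nuclei, these orders are a description with no test.

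The spread between mice set these genes apart from each other. For each gene with a mean of at least 10 CPM, the SD over mice of log2(CPM + 1), as the deviation from the mean of the group, was ranked within a cell type. In oligodendrocyte-like nuclei Fkbp5 ranked 32nd from the largest, Sgk1 40th and Zbtb16 57th of 8286 genes, whereas Nr3c1 ranked 7770th. In microglia-like nuclei Nr3c1 ranked 8800th of 8971 genes. In astrocyte-like nuclei Fkbp5 ranked 53rd and Nr3c2 8293rd of 8846, while Nr3c2 in oligodendrocyte-like nuclei ranked 4937th of 8286. In dentate granule-like nuclei Fkbp5 ranked 5854th, Zbtb16 5935th and Sgk1 1401st of 7668 genes. Fkbp5 and Zbtb16 were therefore among the most variable genes in oligodendrocyte-like nuclei and below the middle in dentate granule-like nuclei, whereas Sgk1 was in the upper part of the order in both.

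Fkbp5 in oligodendrocyte-like nuclei shows this spread. The 5 Cgas+/+ mice had 31.5, 34.2, 39.1, 41.1 and 83.9 CPM, the 2 Cgas+/- mice 45.9 and 62.5, and the 2 Cgas-/- mice 41.0 and 43.7 CPM. P301S Cgas+/+ mice ran from 13.8 through a median of 30.9 to 135 CPM, P301S Cgas+/- mice from 15.2 through 50.5 to 356, and P301S Cgas-/- mice from 22.1 through 53.3 to 75.4 CPM. The 3 P301S groups overlapped with each other and with Cgas+/+ mice. The mouse at 356 CPM, P301S Cgas+/- replicate 6, was 25.8-fold above the lowest. Zbtb16 in the same nuclei was 130, 175, 208, 389 and 454 CPM in Cgas+/+ mice, 244 and 422 in Cgas+/- mice and 125 and 176 in Cgas-/- mice. With P301S it ran from 133 through 197 to 529 CPM in Cgas+/+, from 152 through 326 to 1147 in Cgas+/- and from 122 through 342 to 564 CPM in Cgas-/- mice. The highest mouse was again P301S Cgas+/- replicate 6, and the 3 P301S groups overlapped with each other and with Cgas+/+ mice.

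Sgk1 in oligodendrocyte-like nuclei was 53.4, 88.8, 106, 177 and 180 CPM in Cgas+/+ mice, 95.1 and 214 in Cgas+/- mice, and 90.5 and 121 CPM in Cgas-/- mice. P301S Cgas+/+ mice ran from 23.1 through 87.9 to 256 CPM, P301S Cgas+/- mice from 39.4 through 128 to 350 and P301S Cgas-/- mice from 40.9 through 96.8 to 190 CPM, with replicate 6 of P301S Cgas+/- again on top. Tsc22d3 was steadier, with 126, 139, 144, 150 and 162 CPM in Cgas+/+ mice and 100.3 through 143 to 184 CPM in P301S Cgas+/+ mice. Errfi1 was 32.9, 53.4, 66.3, 79.9 and 93.4 CPM in Cgas+/+ mice and 61.8 through 70.6 to 123 CPM in P301S Cgas+/+ mice.

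**Figure D2:**
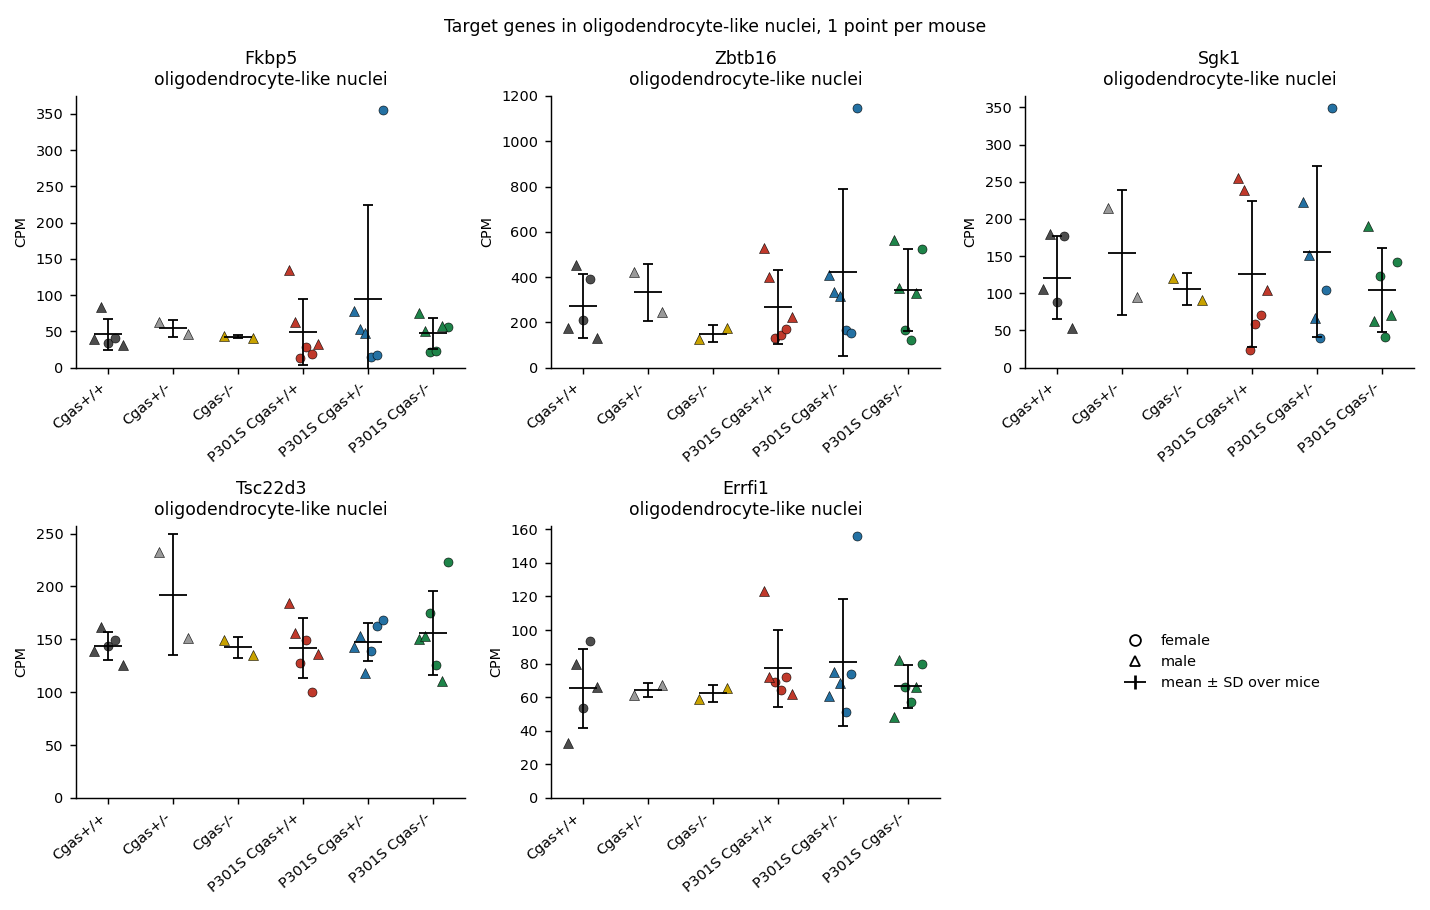
The 5 target genes in oligodendrocyte-like nuclei by genotype group, in CPM from 0. Circles are female and triangles male mice, bars are the mean ± SD over mice (for Fkbp5 in P301S Cgas+/- the lower end runs below 0 and is not drawn), and the P301S groups overlap with each other and with Cgas+/+ in every panel, with 1 P301S Cgas+/- female at 356 CPM for Fkbp5, 1147 for Zbtb16, 350 for Sgk1 and 156 for Errfi1.

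The first question of the design was whether the tau transgene changed these genes where Cgas was intact. P301S Cgas+/+ mice were compared with Cgas+/+ mice in 9 classes of nuclei with the quasi-likelihood test of edgeR, fitted over all genes on counts summed per mouse, with sex as a covariate and Benjamini-Hochberg adjustment within each class. A gene was called at an adjusted p under 0.05. The 7 genes passed the filter on low counts in 59 gene-class pairs, and Tsc22d3 did not pass in oligodendrocyte progenitor-like, dentate granule-like, CA1-like or CA3-like nuclei. Of the 59 pairs 0 were called by edgeR and 0 by DESeq2, and 1 had an unadjusted p under 0.05 with edgeR and 2 with DESeq2. Over all genes and classes, 10 of 106206 tests were called (0.00942%) and 6353 (5.98%) had an unadjusted p under 0.05, so the count for the 7 genes did not exceed the background. DESeq2 called 0.438% of the genes fitted. The median log2 fold change of the 59 pairs was 0.05, with a range of -0.51 to 0.84.

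The pair with an unadjusted p under 0.05 was Sgk1 in microglia-like nuclei. Cgas+/+ mice had 44.9, 53.9, 58.6, 68.3 and 70.6 CPM and P301S Cgas+/+ mice 64.0 through 74.4 to 96.5 CPM, a log2 fold change of 0.41 ± 0.19 (SE) with an adjusted p of 0.278 by edgeR. The groups overlapped at their edges. Nr3c2 in dentate granule-like nuclei was 1284, 1341, 1345, 1435 and 1466 CPM in Cgas+/+ mice and ran from 1300 through 1658 to 1944 CPM in P301S Cgas+/+ mice. This log2 fold change of 0.26 ± 0.13 had an adjusted p of 0.99997 by edgeR and was 0.135 without P301S Cgas+/+ replicate 6, and the groups overlapped. In CA1-like nuclei the value for Nr3c2 was -0.000883 ± 0.155. Nr3c1 in microglia-like nuclei was 237, 259, 261, 274 and 312 CPM in Cgas+/+ mice and 222 through 286 to 316 CPM in P301S Cgas+/+ mice, a log2 fold change of 0.05 ± 0.11. The largest fitted value was for Fkbp5 in astrocyte-like nuclei at 0.84 ± 0.62, with an adjusted p of 0.634 by edgeR. Here the Cgas+/+ mice had 8.997, 9.49, 12.8, 14.6 and 23.03 CPM and P301S Cgas+/+ mice ran from 11.7 through 16.3 to 77.3 CPM, of which the second highest was 17.3 CPM. Without the highest mouse, P301S Cgas+/+ replicate 1, the value was 0.23. The lowest fitted value was for Tsc22d3 in astrocyte-like nuclei at -0.51 ± 0.37, with 83.6, 90.2, 90.8, 114 and 117 CPM in Cgas+/+ mice and 27.4 through 59.9 to 127 CPM in P301S Cgas+/+ mice. It was 0.0061 in males alone and -0.32 without P301S Cgas+/+ replicate 3.

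**Figure D3:**
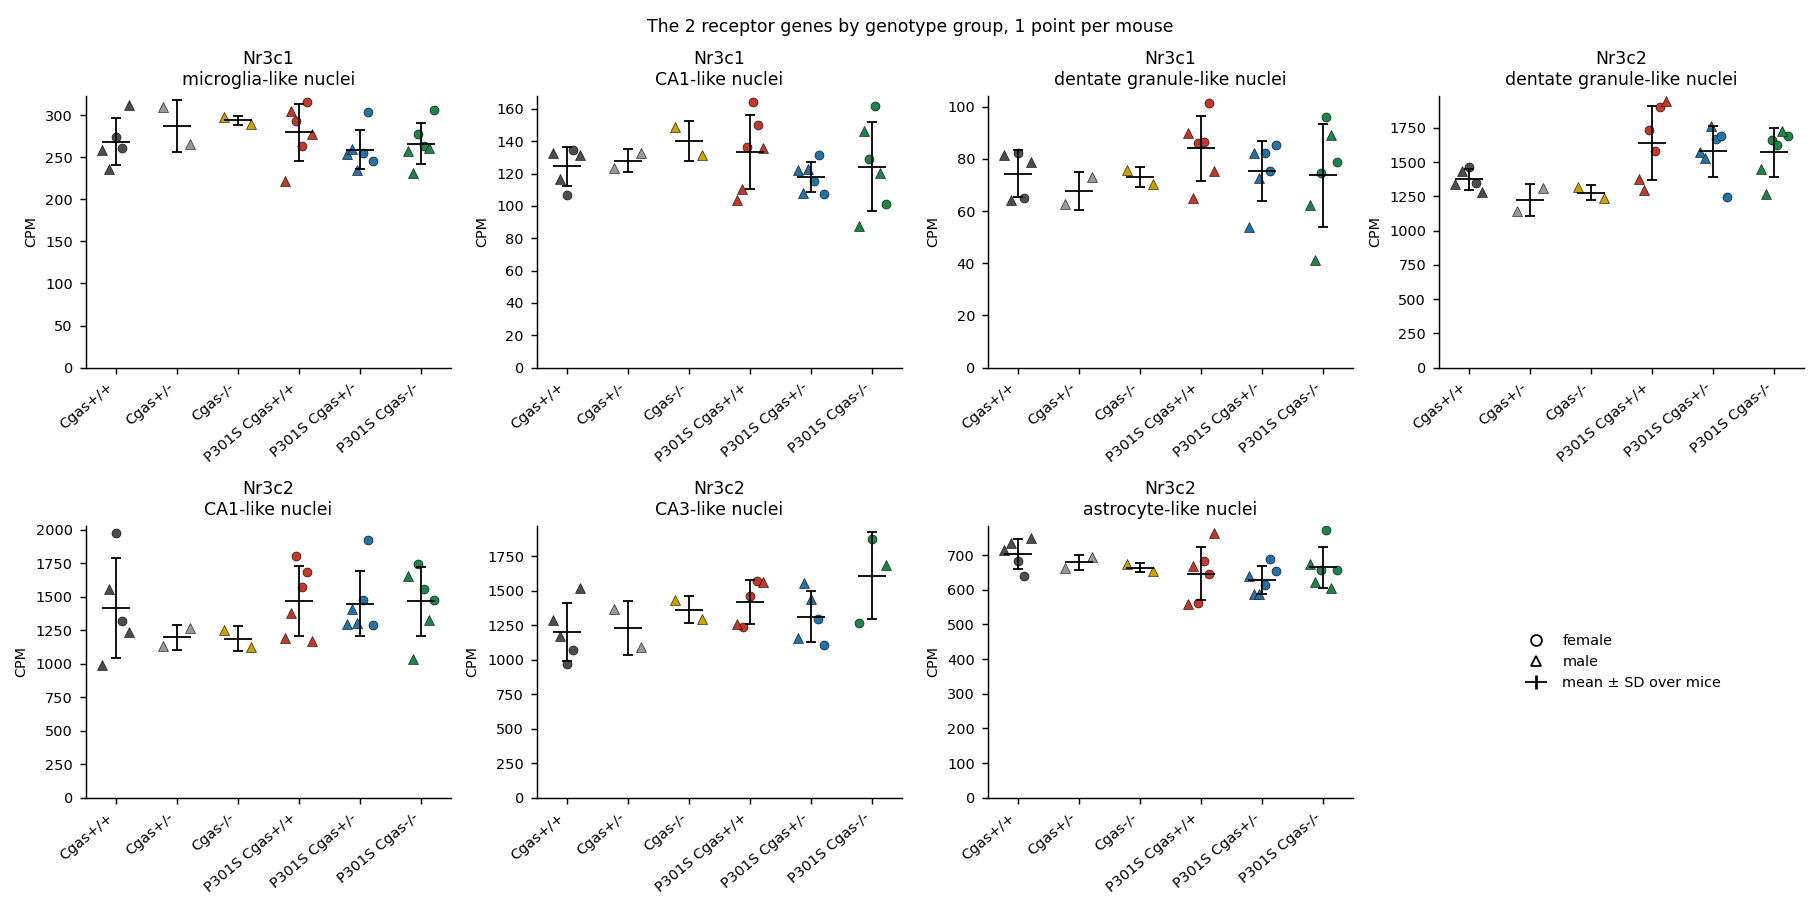
The 2 receptor genes by genotype group in 7 combinations of gene and class, in CPM from 0, with circles for female mice, triangles for male mice and bars for the mean ± SD. P301S Cgas+/+ and Cgas+/+ mice overlap in each panel, and P301S Cgas+/+ mice reach 1944 CPM for Nr3c2 in dentate granule-like nuclei, where the 5 Cgas+/+ mice lie between 1284 and 1466.

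The second question was what loss of Cgas did in P301S mice. P301S Cgas-/- against P301S Cgas+/+ gave 0 calls in 59 pairs by edgeR and 0 by DESeq2, and 3 pairs with an unadjusted p under 0.05 by each tool. Over all genes edgeR called 0% and DESeq2 0.0782%, and 5.54% had an unadjusted p under 0.05 by edgeR. P301S Cgas+/- against P301S Cgas+/+ gave 0 calls by each tool and 5 pairs with an unadjusted p under 0.05 by each, beside 0.000942% of all genes called by edgeR and 0.129% by DESeq2, and 5.29% under an unadjusted p of 0.05 by edgeR. In excitatory neuron-like nuclei alone, 2256 of 16937 genes were under 0.05 in the first comparison and 1984 in the second. The counts for the 7 genes are thus near the background, and the pairs are named as a description. The pairs below 0.05 without adjustment in the first of these comparisons were Sgk1 in microglia-like nuclei, with a log2 fold change of -0.50 ± 0.17, Tsc22d3 in excitatory neuron-like nuclei, with 0.47 ± 0.21, and Nr3c2 in excitatory neuron-like nuclei, with -0.68 ± 0.32. Sgk1 in microglia-like nuclei of P301S Cgas-/- mice ran from 31.9 through 54.6 to 79.9 CPM, overlapping both other groups. In the heterozygous comparison Nr3c2 was below 0 in excitatory neuron-like (-0.73 ± 0.32), microglia-like (-0.31 ± 0.13), oligodendrocyte progenitor-like (-0.30 ± 0.12) and oligodendrocyte-like nuclei (-0.27 ± 0.12), and Sgk1 was above 0 in CA3-like nuclei (0.48 ± 0.17). The lowest adjusted p among the 59 pairs was 0.333 in the first comparison and 0.370 in the second.

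The makeup of the excitatory nuclei differed between mice. Cortical-like nuclei, which had 395 CPM of Nr3c2 against 1472 ± 199 CPM (n = 27) in hippocampal-like excitatory nuclei, made up 4.86% to 85.2% of the excitatory nuclei in P301S Cgas+/+ mice, 52.9% to 95.0% in P301S Cgas+/- mice and 45.7% to 90.6% in P301S Cgas-/- mice. In hippocampal-like excitatory nuclei alone the log2 fold change of Nr3c2 was -0.08 ± 0.12 in the deletion comparison and -0.09 ± 0.13 in the heterozygous comparison. For Tsc22d3 in the same nuclei it was 0.40 ± 0.39, close to the value in all excitatory nuclei, at a mean of 1.33 CPM. The part of the makeup in these values was not tested. Excitatory neuron markers were also found in oligodendrocyte-like nuclei, at 5.61% to 14.8% of their level in excitatory neuron-like nuclei. The part of such RNA in the heterozygous values of Nr3c2 in glial classes was not tested, so these classes may not be independent of the neurons. The heterozygous values of Fkbp5 and Zbtb16 in oligodendrocyte-like nuclei and of Fkbp5 in microglia-like nuclei rested on 1 mouse. For Fkbp5 in oligodendrocyte-like nuclei the log2 fold change was 1.15 ± 0.69, and -0.26 ± 0.38 without P301S Cgas+/- replicate 6. For Fkbp5 in microglia-like nuclei it was 0.67 ± 0.40, and -0.01 ± 0.22 without that mouse, whose level there was 1183 CPM on 375 UMIs. For Zbtb16 in oligodendrocyte-like nuclei it was 0.72 ± 0.52, and 0.01 ± 0.40 without it.

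In the absence of tau, Cgas-/- against Cgas+/+ was fitted with all 27 mice and rested on 2 Cgas-/- males. Of 61 pairs, 0 were called by edgeR and 0 by DESeq2, with 0 below an unadjusted p of 0.05, beside 0% of all genes called by edgeR, 0.0473% by DESeq2 and 3467 tests under 0.05. The test of whether the effect of Cgas loss differed with tau gave 0 calls by each tool and 3 pairs with an unadjusted p under 0.05 by each, beside 0.00086% of all genes called by edgeR and 0.768% by DESeq2, and 5.99% under an unadjusted p of 0.05 by edgeR (3279 of 17773 genes in excitatory neuron-like nuclei). These 3 were Nr3c2 in excitatory neuron-like nuclei (-1.31 ± 0.52), Fkbp5 in the same nuclei (-0.85 ± 0.34) and Nr3c2 in microglia-like nuclei (-0.54 ± 0.23). In hippocampal-like excitatory nuclei the value was -0.01 ± 0.22 for Nr3c2 and -0.03 ± 0.22 for Fkbp5. Cortical-like nuclei made up 8.35% and 15.2% of the excitatory nuclei of the 2 Cgas-/- mice, and 20.1% to 78.2% in Cgas+/+ mice.

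**Figure D4:**
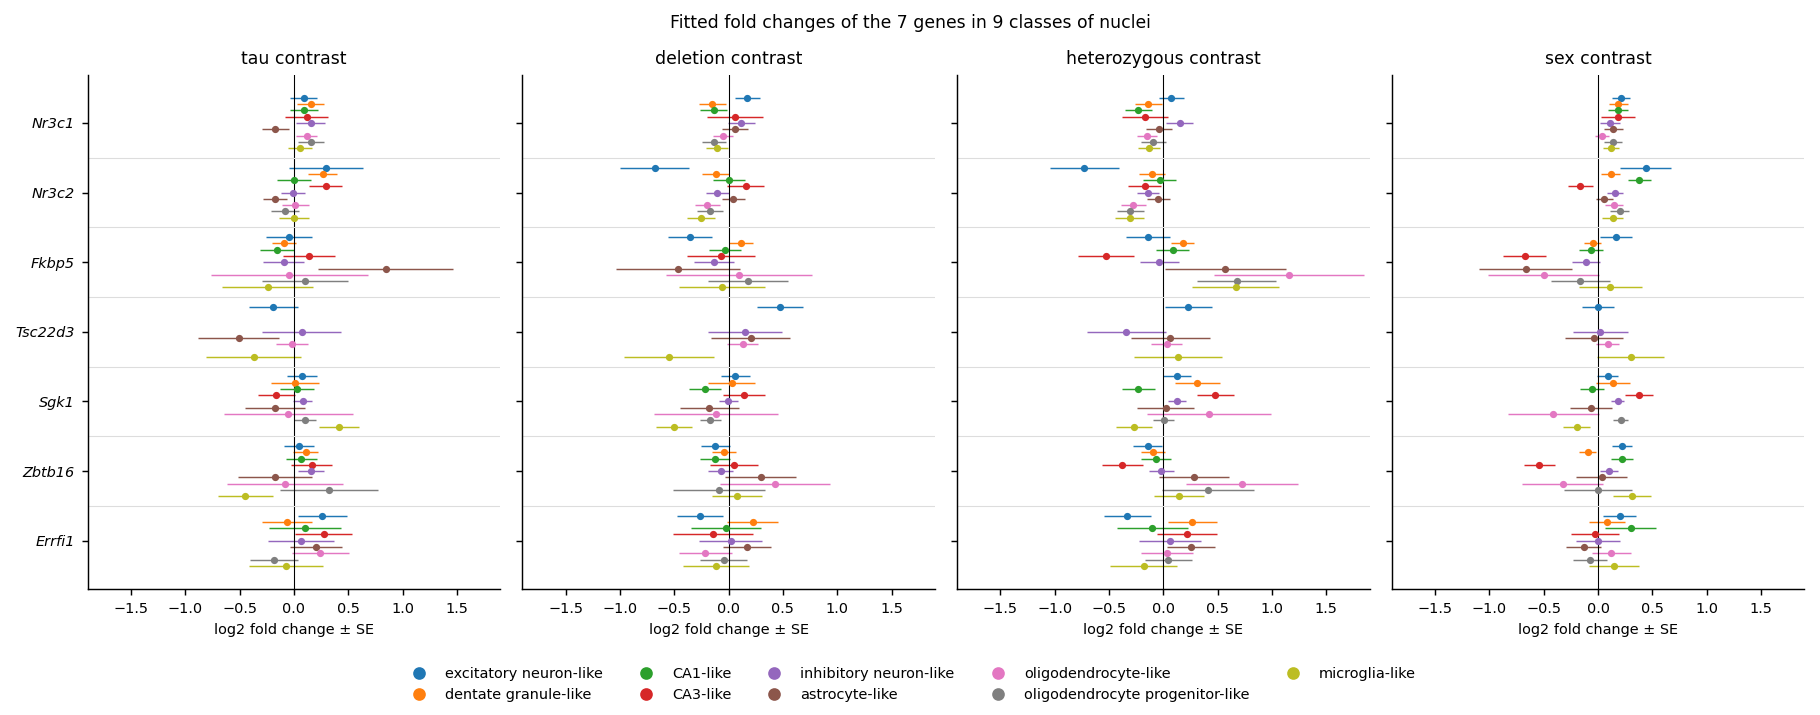
Fitted log2 fold changes with SE of the 7 genes in 9 classes (colours) for P301S Cgas+/+ against Cgas+/+ (tau), P301S Cgas-/- and P301S Cgas+/- against P301S Cgas+/+ (deletion and heterozygous) and female against male (sex). None of the 59 pairs drawn per panel was called by edgeR, and the 3 widest bars of each panel are those of Fkbp5 in oligodendrocyte-like and astrocyte-like nuclei and of Sgk1 in oligodendrocyte-like nuclei.

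Female and male mice were compared across the same groups. Over the 23 mice of 4 groups, female against male gave 0 calls by edgeR and 3 by DESeq2 in 59 pairs, with 12 pairs under an unadjusted p of 0.05 by each tool. Of all genes, 2.98% were called by edgeR, 5.13% were called by DESeq2 and 16.3% had an unadjusted p under 0.05, so the 3 calls among the 59 pairs were near the background of DESeq2. The 3 pairs called by DESeq2 were all in neurons. Levels are given here for all mice with the class, which adds the 4 males of Cgas+/- and Cgas-/- that were not in the fit. Nr3c2 in CA1-like nuclei was higher in females, with 1290 to 1978 CPM and a median of 1572 in 11 females against 993 to 1655 CPM and a median of 1257 in 16 males. Its log2 fold change was 0.38 ± 0.11, with an adjusted p of 0.0553 by edgeR and 0.0285 by DESeq2. Zbtb16 in CA3-like nuclei was lower in females, with 180 to 460 CPM and a median of 248 in 9 females against 254 to 447 CPM and a median of 377 in 13 males. Its log2 fold change was -0.54 ± 0.14, with an adjusted p of 0.0573 by edgeR and 0.0180 by DESeq2. Fkbp5 in CA3-like nuclei ran from 20.3 through 54.5 to 84.2 CPM in 9 females and from 30.8 through 89.8 to 120 CPM in 13 males, a log2 fold change of -0.67 ± 0.20 with an adjusted p of 0.0837 by edgeR and 0.0220 by DESeq2. Sexes overlapped in each of the 3. CA3-like nuclei pool clusters with different leading genes, and the part of that makeup in the CA3-like values was not tested.

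Sex moved with a difference in file headers. The header named Cell Ranger 3.0.2 in 12 libraries, all male, and 3.1.0 in the other 15, which held the 11 females and 4 males. With the header version as a covariate, chosen after seeing the data, the log2 fold change was 0.36 for Nr3c2 in CA1-like nuclei, -0.68 for Zbtb16 and -0.59 for Fkbp5 in CA3-like nuclei, and the edgeR adjusted p was 0.279, 0.0840 and 0.270. Males with header 3.1.0 had 1170 to 1324 CPM of Nr3c2 in CA1-like nuclei (n = 4), in the range of the other males. They had 370 to 447 CPM of Zbtb16 in CA3-like nuclei, above the female median. For Fkbp5 in CA3-like nuclei they ran from 30.8 to 101 CPM, with a mean of 76.2 between that of females (49.96) and that of males with header 3.0.2 (94.4), and the lowest was below the female median. Fkbp5 in oligodendrocyte-like nuclei had a sex difference of -0.50 ± 0.51 and an adjusted p of 0.702 by edgeR, and -1.24 ± 0.28 with an adjusted p of 0.0255 without P301S Cgas+/- replicate 6. With the header version as a covariate it was 0.04 ± 0.71, in a fit of all 23 mice that held this mouse again. Within header 3.1.0, females ran from 13.8 through a median of 22.3 to 356 CPM (n = 11). The 4 males with that header ran from 31.5 through 40.7 to 58.0 CPM. The part of the header version in these values was not tested further.

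Levels of 3 target genes were correlated between astrocyte-like and oligodendrocyte-like nuclei of the same mouse. Log2(CPM + 1), as the deviation from the group mean, was correlated between excitatory neuron-like, astrocyte-like and oligodendrocyte-like nuclei of the same mouse, with 100000 permutations of mice within groups. Of 21 correlations (7 genes in 3 pairs of classes, 27 mice), 7 passed an adjusted p of 0.05 by Pearson's r, all positive. Their raw permutation p ran from 1e-05, the smallest these permutations can give, to 0.00208. By Spearman's rho 9 of the 21 passed. For Zbtb16, astrocyte-like against oligodendrocyte-like nuclei gave Pearson's r = 0.93 and Spearman's rho = 0.93 (permutation, adjusted p = 0.00021 for each), and r was 0.92 without the 2 mice farthest from the median. For Fkbp5 the same pair gave r = 0.85 (adjusted p = 0.00021) and rho = 0.84 (adjusted p = 0.000315), with r = 0.78 without 2 mice. For Tsc22d3 it gave r = 0.75 (adjusted p = 0.00147) and rho = 0.75 (adjusted p = 0.00197), with r = 0.80 without 2 mice. Sgk1, with r = 0.34 (adjusted p = 0.281), Errfi1, with r = 0.41 (adjusted p = 0.109), and Nr3c1, with r = 0.14 (adjusted p = 0.621), did not pass by Pearson's r between the same classes. Without P301S Cgas+/- replicate 6, r was 0.91 for Zbtb16 and 0.83 for Fkbp5, and 7 of 21 passed.

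Excitatory neuron-like nuclei, pooled over subclasses, were the one neuronal class compared with the glia. Their share of cortical-like nuclei ran from 4.86% to 95.0% between mice. Nr3c2 had 395 CPM in cortical-like and 1472 CPM in hippocampal-like excitatory nuclei, and Fkbp5 had 44.0 and 106 CPM. The part of this makeup in the values below was not tested. Excitatory neuron-like against astrocyte-like nuclei gave r = 0.06 for Fkbp5 (adjusted p = 0.838) and r = 0.10 for Zbtb16 (adjusted p = 0.775), and against oligodendrocyte-like nuclei r = 0.28 (adjusted p = 0.353) and r = -0.05 (adjusted p = 0.838). Whether these r differ from the glial ones was not tested. Nr3c2 correlated between oligodendrocyte-like and both excitatory neuron-like nuclei (r = 0.70, rho = 0.62) and astrocyte-like nuclei (r = 0.67, rho = 0.70), with a permutation adjusted p of 0.00346 for each r and of 0.0125 and 0.00126 for rho. Without 2 mice r was 0.67 and 0.64. Errfi1 correlated between excitatory neuron-like and astrocyte-like nuclei (r = 0.67, rho = 0.70, adjusted p = 0.00346 and 0.00197) and oligodendrocyte-like nuclei (r = 0.55, rho = 0.62, adjusted p = 0.00624 and 0.00409), and r was 0.59 and 0.50 without 2 mice.

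Within header versions the number of mice per group was small. In the 15 mice with 3.1.0, r between astrocyte-like and oligodendrocyte-like nuclei was 0.95 for Zbtb16 (adjusted p = 0.00063) and 0.87 for Fkbp5 (adjusted p = 0.0496), and 3 of 21 correlations passed. In the 12 mice with 3.0.2, r was 0.85 and 0.87, and 0 passed, with 2 mice in each group. Oligodendrocyte RNA in astrocyte-like nuclei was measured by markers. The 7 oligodendrocyte markers summed in astrocyte-like nuclei to 91.9 to 266 CPM, 0.541% to 1.57% of their level in oligodendrocyte-like nuclei, while Fkbp5 in astrocyte-like nuclei was 12.8% to 126%, Zbtb16 32.5% to 86.6% and Tsc22d3 21.6% to 84.0% of its oligodendrocyte-like level in the same mouse. In oligodendrocyte-like nuclei, astrocyte markers were at 1.51% to 2.75% and excitatory neuron markers at 5.61% to 14.8% of their level in their own class. The part of either in the correlations was not tested.

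**Figure D5:**
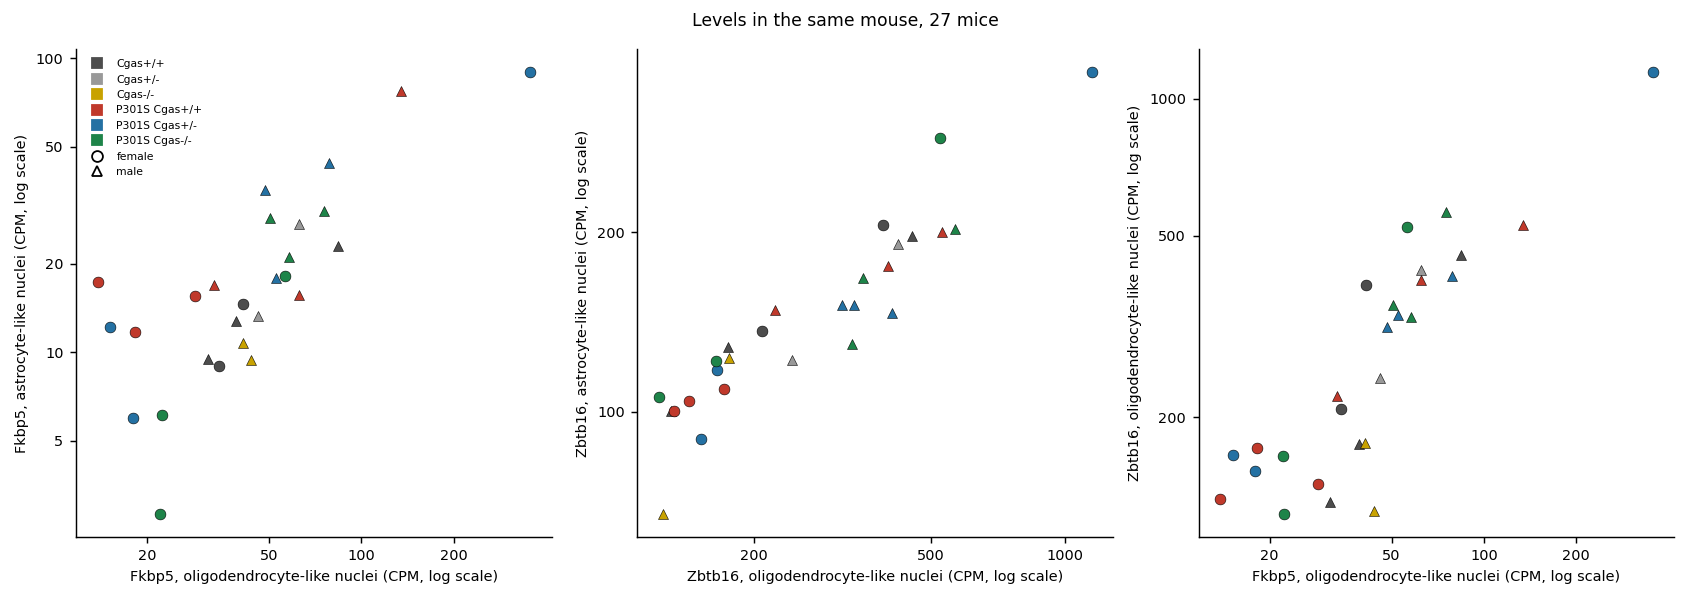
Levels in the same mouse on log axes, in CPM, with colours for genotype groups, circles for females and triangles for males (27 mice). Left and centre, Fkbp5 and Zbtb16 in astrocyte-like against oligodendrocyte-like nuclei (r = 0.85 and 0.93 after removal of group means), and right, Zbtb16 against Fkbp5 in oligodendrocyte-like nuclei (r = 0.91), where points rise together and the P301S Cgas+/- female at 356 CPM of Fkbp5 is at the upper right.

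Within oligodendrocyte-like nuclei, 6 of the 10 pairs of target genes passed by Pearson's r, and 4 by Spearman's rho. The 21 pairs of all 7 genes were examined after the spread above had been seen, and their p-values are descriptive. Fkbp5 and Zbtb16 had r = 0.91 and rho = 0.92, Sgk1 and Zbtb16 r = 0.81 and rho = 0.81, and Fkbp5 and Sgk1 r = 0.79 and rho = 0.78, with permutation adjusted p of 0.00021, 0.00042 and 0.00056 for r and of 0.00021, 0.00042 and 0.00063 for rho. Without the 2 mice farthest from the median, r was 0.88, 0.79 and 0.73. Tsc22d3 and Sgk1 had r = 0.61 and rho = 0.70 (adjusted p = 0.0111 and 0.00241). The correlations of Errfi1 with Zbtb16 (r = 0.60, rho = 0.43) and with Fkbp5 (r = 0.59, rho = 0.38) did not pass by rho (adjusted p = 0.1005 and 0.127) and rested on the farthest mice, with r of 0.36 and 0.23 without them. Tsc22d3 with Fkbp5 (r = 0.40), Zbtb16 (0.46) and Errfi1 (0.36) and Errfi1 with Sgk1 (0.43) did not pass. Of the pairs of Nr3c1 with a target, 1 passed, with r = -0.64 and rho = -0.54 for Nr3c1 and Tsc22d3 (adjusted p = 0.0052 and 0.0377), r = -0.47 without 2 mice, whereas r of -0.41 with Fkbp5, -0.44 with Sgk1, -0.38 with Zbtb16 and -0.22 with Errfi1 did not pass (adjusted p of 0.0991, 0.103, 0.103 and 0.341). In all, 6 positive pairs and 1 negative pair passed. Without P301S Cgas+/- replicate 6 these were 4 and 2, and the highest r within header versions was 0.895 in the 15 mice with 3.1.0, where 1 pair passed, and 0.833 in the 12 mice with 3.0.2, where 0 passed. With 2 mice in each group of the 3.0.2 libraries, permutation within groups could hardly reach the threshold. Only group means were removed, so sex and header version stayed in these r. Nr3c1 averaged 222 CPM in 12 males with 3.0.2 and 253 CPM in 4 males with 3.1.0. In the same males Tsc22d3 averaged 159 and 123 CPM, Sgk1 161 and 74.0, Fkbp5 64.2 and 42.7, Zbtb16 349 and 250, and Errfi1 68.9 and 65.6 CPM. The part of the header version in the single pairs was not tested.

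In CA3-like nuclei, by contrast, Sgk1 ran against the other targets described there over 22 mice, with r of -0.87 with Fkbp5, -0.68 with Zbtb16 and -0.50 with Errfi1, and against the receptor gene Nr3c2 (r = -0.65). CA3-like nuclei pool clusters of 2619, 1067 and 147 nuclei with different leading genes. The part of this makeup in these r was not tested. In dentate granule-like nuclei Zbtb16 and Fkbp5 had r = 0.61, which placed Fkbp5 20th among 7668 genes in likeness to Zbtb16, while Nr3c2 and Fkbp5 had r = -0.59. In microglia-like nuclei Fkbp5 and Tsc22d3 had r = 0.64, which placed Tsc22d3 29th of 8971 genes in likeness to Fkbp5. This r includes P301S Cgas+/- replicate 6, at 1183 CPM of Fkbp5 beside 286 in the nearest mouse of its group. It also includes a female at 75.7 CPM of Tsc22d3, where the female median was 17.2. No r without such mice is given here. Neither sex nor header version was removed from the r values of this paragraph, and in CA3-like nuclei Sgk1 had a mean of 338 CPM in 9 females and 256 CPM in 13 males, opposite to Fkbp5 and Zbtb16. The r values describe the same mice as above and carry no test.

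Other glucocorticoid-responsive genes were read from a list of 32, of which 30 were tested in at least 1 class. The list was chosen with earlier results of these data known, so the shares below are a description with no test. Each r is over 27 mice, with P301S Cgas+/- replicate 6 included. Among the 16 with a mean of at least 10 CPM in oligodendrocyte-like nuclei, 9 (56.2%) had r over 0.5 with Fkbp5 there, against 6.75% of 8279 genes. They were Hif3a (r = 0.95), which encodes a hypoxia-inducible factor subunit, Plin4 (0.84), a coat protein of lipid droplets, Klf9 (0.83), a zinc finger transcription factor, Arrdc2 (0.81) and Arrdc3 (0.53), both arrestin-domain proteins, Per1 (0.73), a clock gene, Nfkbia (0.68), the inhibitor of NF-kappaB, Ddit4 (0.67), an inhibitor of mTOR signalling, and Pdk4 (0.62), a kinase that restrains pyruvate oxidation. Irs2, an adaptor of insulin signalling, went against Fkbp5 (r = -0.60). With Zbtb16 in the same nuclei, 9 of 16 had r over 0.5 against 4.37% of genes, led by Klf9 (0.91) and Hif3a (0.88). In astrocyte-like nuclei 2 of 18 had r over 0.5 with Fkbp5 (Nfkbia 0.69 and Hif3a 0.68), against 5.87% of 8839 genes, and 6 of 18 with Zbtb16, against 2.15%. In microglia-like nuclei 4 of 12 did with Fkbp5 against 2.06% of 8964 genes, namely Cables1 (0.71), Pik3r1 (0.67), Per1 (0.63) and Arrdc3 (0.51). Of the receptor chaperones and cofactors, 0 of 16 had r over 0.5 with Fkbp5 in oligodendrocyte-like nuclei.

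Between groups, no gene of the 3 lists was called by edgeR in the tau, deletion or heterozygous comparison, in Cgas-/- against Cgas+/+ or in the interaction. Of the 150 pairs of glucocorticoid-responsive genes and classes, 19 (12.7%) had an unadjusted p under 0.05 in the tau comparison, against 5.98% of all genes, and their median log2 fold change was 0.05 against -0.01 over all genes. This difference in share was not tested, and the list was chosen with earlier results of these data known. The share over all genes also varied between classes in this comparison. It was 1524 of 13000 genes in astrocyte-like, 1426 of 9080 in microglia-like and 197 of 11556 in CA1-like nuclei. The pooled share is thus not matched to the classes of the listed pairs. The pairs are also not independent, since dentate granule-like, CA1-like and CA3-like nuclei are part of the excitatory neuron-like class. The lowest p values there were for Nedd9, a scaffold of cell adhesion, in oligodendrocyte progenitor-like nuclei (1.08 ± 0.25, adjusted p = 0.122 by edgeR and 0.0440 by DESeq2) and for Cebpd, a transcription factor of acute inflammation, in astrocyte-like nuclei (2.66 ± 0.70, adjusted p = 0.211 by edgeR and 0.00714 by DESeq2). Cdkn1a, an inhibitor of the cell cycle, had 3.57 ± 1.01 and Bcl6, a repressor, 0.81 ± 0.24 in oligodendrocyte-like nuclei, each with an adjusted p of 0.682 by edgeR.

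Of 152 pairs of chaperones and cofactors, 7 had an unadjusted p under 0.05 in the tau comparison (4.61%). Among the lowest were those for the coactivator Ncoa1 in microglia-like nuclei (0.33 ± 0.12), the co-chaperone Fkbp4 in microglia-like nuclei (-0.82 ± 0.32) and the chaperone Hspa8 in astrocyte-like nuclei (-0.55 ± 0.22), with adjusted p by edgeR of 0.169, 0.205 and 0.323. Of the genes of ligand metabolism and stress hormones, 8 of 12 were tested, and 2 of 30 pairs (6.67%) had an unadjusted p under 0.05, against 5.98% of all genes. This count was 4 of 30 (13.3%) in the deletion comparison, 5 of 30 (16.7%) in the heterozygous one and 6 of 37 (16.2%) in the interaction. Over all genes the shares were 5.54%, 5.29% and 5.99%, and these differences on few pairs were not tested. These pooled shares hide large differences between classes. In excitatory neuron-like nuclei the counts over all genes were 2256 of 16937, 1984 of 16937 and 3279 of 17773. In microglia-like nuclei they were 226 of 9080, 193 of 9080 and 302 of 9685. The pooled shares are thus not matched to the classes of the listed pairs. In the tau comparison the following values were fitted. Hsd11b1, the enzyme that regenerates active corticosterone, had -0.57 ± 0.26 in astrocyte-like nuclei (adjusted p = 0.388 by edgeR), the steroid reductase Srd5a1 -0.45 ± 0.22 in inhibitory neuron-like nuclei, the hormone receptor Crhr1 -0.66 ± 0.32 in dentate granule-like nuclei and H6pd, which supplies the cofactor of Hsd11b1, -0.46 ± 0.32 in astrocyte-like nuclei.

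Between sexes, 4 of the 150 pairs of glucocorticoid-responsive genes were called by edgeR, 3 higher and 1 lower in females, a share no larger than the 2.98% of all genes. Irs2 (0.44 ± 0.09, adjusted p = 0.0158 by edgeR) and the stress-induced Sesn1 (0.20 ± 0.05, adjusted p = 0.0492 by edgeR) rose in oligodendrocyte-like nuclei, and in excitatory neuron-like nuclei Rasd1, a small GTPase, rose (0.99 ± 0.30) and the metallothionein Mt2 fell (-0.68 ± 0.20), at means of 0.895 and 0.595 CPM. Of the 30 pairs of ligand genes 0 were called by edgeR, and 7 (23.3%) had an unadjusted p under 0.05, against 16.3% of all genes. Of the chaperones and cofactors, 3 of 152 pairs were called, all higher in females, again no larger a share than that of all genes. Among them were, in oligodendrocyte-like nuclei, Stip1, which links Hsp70 to Hsp90 (0.45 ± 0.12), and Hsp90ab1, which encodes a form of Hsp90 (0.69 ± 0.18). With the header version as a covariate the edgeR adjusted p of the 6 genes named here lay between 0.193 and 0.353, while the log2 fold changes were 0.46 for Irs2, 0.22 for Sesn1, 1.16 for Rasd1, -0.78 for Mt2, 0.54 for Stip1 and 0.69 for Hsp90ab1, all close to or larger than without it.

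The genes most like each of the 7 were taken in the tested class where its mean was highest, by r over mice among genes with a mean of at least 10 CPM. For Nr3c1 in microglia-like nuclei they were Slc8a1 (r = 0.85), P2ry6 (0.77) and Disc1 (0.67) of 8971 genes. For Nr3c2 in dentate granule-like nuclei they were Pik3c2b (0.73), Ece1 (0.73) and Agap1 (0.72) of 7668 genes, and for Zbtb16 in the same nuclei Trp53bp1 (0.71), Arhgef4 (0.69) and Elmo2 (0.69). For Fkbp5 in microglia-like nuclei, with P301S Cgas+/- replicate 6 included, they were Lifr (0.81), Afap1l1 (0.81) and Osbpl11 (0.77). For Tsc22d3 in oligodendrocyte-like nuclei they were Rap1gds1 (0.78), Grb14 (0.77) and Kdm5b (0.76) of 8286 genes, and for Errfi1 Cir1 (0.82), Zfp410 (0.77) and Ppp1cb (0.76). For Sgk1 in CA3-like nuclei, over 22 mice, they were Mbnl2 (0.93), Frrs1l (0.92) and Adora1 (0.92) of 7534 genes, of which 932 had r over 0.5, against 76 to 287 for the other genes in their classes.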

How the data were processed

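Nuclei were profiled with Chromium 3′ v3 chemistry, and the authors deposited UMI counts per gene and barcode for each library. The authors' processing notes name Cell Ranger 3.1.0, Seurat 3.0 and mm10, whereas the file headers give 3.0.2 for 12 libraries. A barcode was retained with 200 to 4000 genes and no more than 5% of UMIs from mitochondrial genes. Doublet calls, at an assumed 0.8% for every 1000 barcodes, took out a further 16429. Counts were clustered with scanpy 1.11.5 (2000 variable genes without the 7 genes and the listed genes, 30 components, 15 neighbours, Leiden resolution 1). Clusters were named from at least 3 markers, unless another class scored over 85% of the best, a threshold that was revised after cluster names, markers and a table of subcluster shares per group had been seen.

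Counts were summed per mouse and class, libraries with fewer than 10 nuclei of a class were left out (5 for CA3-like nuclei, which leaves 22), and the sums were tested with edgeR 4.0.16 in R 4.3.3 (TMM, filter on low counts, robust quasi-likelihood fit, sex covariate). Each mouse was 1 replicate. DESeq2 1.42.0, other filters, all 27 mice and leaving out each library were alternatives, and the header version, single sexes and the mouse left out by name were chosen after seeing the data. On simulated data for the tau comparison in astrocyte-like nuclei, 162 of 200 genes changed 2-fold were recovered among 12772, with 10 false calls. The simulation gave every gene the same spread between mice and no sex effect. Its recovery does not carry over to genes as variable as Fkbp5, which ranked 53rd of 8846 by spread in these nuclei. The members and lists were chosen with earlier results of these data known. Listed genes were named when called (at most 6 a list) or when among the 4 with the lowest p in the tau comparison, and the 3 most like genes were named for each member. A listed gene that met this rule is not reported here. UMI totals limit precision by counting error beside the spread between mice.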

Additional observations from a re-analysis of the deposited data

Results flagged for a closer look

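Within each group of 4 to 6 mice, the highest and lowest mouse were compared with their neighbours for 67 combinations of gene, class and group, and 11 values stood apart by Dixon's test, where chance gives about 1 in 20 for independent values with a normal spread. The test was run on CPM without a log, and the combinations share mice, so that share is only a rough guide. All 11 values were the highest of their group. They came from 5 mice. P301S Cgas+/- replicate 6 accounted for Fkbp5 in microglia-like nuclei at 1183 CPM (nearest mouse 286) and in oligodendrocyte-like nuclei at 356 (78.4), Zbtb16 in oligodendrocyte-like nuclei at 1147 (408) and in astrocyte-like nuclei at 373 (151), and Errfi1 in oligodendrocyte-like nuclei at 156 (74.9). P301S Cgas+/- replicate 5 stood apart for Nr3c1 in microglia-like nuclei at 304 CPM (260.2) and Nr3c2 in CA1-like nuclei at 1919 (1477). P301S Cgas+/+ replicate 1 stood apart for Fkbp5 in astrocyte-like nuclei at 77.3 CPM (17.3) and Errfi1 in oligodendrocyte-like nuclei at 123 (72.2). P301S Cgas-/- replicate 6 stood apart for Fkbp5 in microglia-like nuclei at 347 CPM (235), and Fkbp5 was 83.9 CPM (41.1) in oligodendrocyte-like nuclei of Cgas+/+ replicate 2.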

How the results depend on the processing

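Without a filter on low counts 1 pair of gene and class was called in the heterozygous comparison (Fkbp5 in microglia-like nuclei, 0.63, edgeR adjusted p = 0.0310). Between sexes, 3 pairs were called with DESeq2, 3 without the filter and 2 with all 27 mice, and 0 to 3 when 1 library was left out. Calls appeared without Cgas+/+ replicate 2, P301S Cgas+/+ replicate 5, P301S Cgas+/- replicates 3 and 6, or P301S Cgas-/- replicates 1 and 4. The other comparisons had 0 calls whichever library was left out. Correlations between classes that passed numbered 0 within header version 3.0.2 and 3 within 3.1.0, and those within oligodendrocyte-like nuclei 0 and 1. The highest r was 0.948 and 0.955 between classes and 0.833 and 0.895 within oligodendrocyte-like nuclei, and with 2 mice per group in 3.0.2 the permutation test could hardly pass. In males alone the tau value of Tsc22d3 in astrocyte-like nuclei was 0.0061, and the heterozygous values were -0.15, -0.34 and -0.15 for Fkbp5 in microglia-like, oligodendrocyte-like and astrocyte-like nuclei and -0.12 for Zbtb16 in oligodendrocyte-like nuclei. With 1 library left out, those of Fkbp5 ran from -0.012 to 0.85, -0.26 to 1.60 and -0.30 to 1.11. The sex value of Nr3c2 in dentate granule-like nuclei turned from 0.12 to -0.11 with the header version as a covariate and -0.11 in 3.1.0 libraries alone. The cause was not tested. No paired analysis was possible because replicate numbers were given in accession order and the labels pair no mice.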
